A study of Homo sapiens with 9 samples.

Results

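The 9 genes described here encode transcription factors of the CREB/ATF family and their direct relatives. They are CREBRF, CREB5, CREB1, CREM, ATF1, CREB3, CREB3L2, CREBZF and CREBL2, taken by symbol from a deposited table of 17083 genes, of which 12924 passed a filter on low counts. All 9 passed it. The genes were chosen by their family name with earlier results of these libraries known, and CREBRF and CREB5 stood out there by their higher RNA in PLK2 than in Vector libraries. Their differences between groups are therefore given as a description, without p-values.

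The RNA came from HEK293T, a cell line derived from human embryonic kidney and holding the large T antigen of SV40, which the labels list as epithelial cells of wild-type genotype. The cells overexpressed FLAG-tagged PLK2, a polo-like serine/threonine kinase, or FLAG-tagged PLK2(D223N), whose kinase domain carries an amino acid substitution, or they carried the FLAG Vector alone, with 3 libraries a group that the labels call biological replicates. How the constructs were introduced and how long before harvest is not given in the sources used here, and these files hold no measure of kinase activity. The study asked which transcripts follow PLK2, and the PLK2(D223N) arm asks which of them differ with the altered form.

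Factors of this family bind DNA through a basic region and pair through a leucine zipper (bZIP). CREB1, CREM and ATF1 form the core group: kinases such as PKA, which cyclic AMP activates, phosphorylate them, and the phosphorylated factors recruit the coactivators CREBBP and EP300 to the cyclic AMP response element (CRE). CREB3 and CREB3L2 are made as membrane proteins of the endoplasmic reticulum and are cut in the Golgi to free a nuclear fragment, while CREBRF binds CREB3 and represses it. CREB5 is a close relative of ATF2 and ATF7 and can pair with JUN.

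The full CRE is TGACGTCA, and its core can stand alone as TGACG. In the RefSeq promoter table (GRCh38.p14), which gives 250 bases before and 50 after each annotated start, the 9 genes have 21 windows, some of them overlapping. The full CRE stood in windows of CREB3L2 and CREM, in 3 of the 21 windows, against 1.85% of all 35116 windows on either strand. The CREM windows with it overlap and share a single element. By gene, 2 of the 9 had a full CRE, against 2.25% of all genes with a window. The core TGACG, which every full CRE contains, stood in 6 of the 21, in windows of CREBRF, CREB3, CREB3L2 and CREM, against 24.6% of all windows. By gene this was 4 of the 9, against 28.4%. CREBRF had no full CRE in its window but was the only one of the 9 genes with the E-box CACGTG, a motif of basic helix-loop-helix factors. It holds this motif at 2 places, where 7.26% of all windows hold it at least at 1 place and 0.664% at 2 or more. By gene, 1 of the 9 had the E-box, against 8.77% of all genes with a window. The CREBRF window has a GC content of 70.7%, and these shares are not matched for GC content. These are matches of letters, binding was not measured, and a link to the level of any gene was not tested. The stretches with the E-boxes of CREBRF and the full CRE of CREB3L2 are printed 5′ to 3′ on the strand of the gene. The TGACG matches of CREBRF and CREB3 lie outside them and are not printed. In CREBRF (chr5:173056102-173056351, plus strand) the capitals mark the E-boxes, in CREB3L2 (chr7:138002236-138002295, minus strand) the full CRE.
CREBRF, the 250 bases before the start: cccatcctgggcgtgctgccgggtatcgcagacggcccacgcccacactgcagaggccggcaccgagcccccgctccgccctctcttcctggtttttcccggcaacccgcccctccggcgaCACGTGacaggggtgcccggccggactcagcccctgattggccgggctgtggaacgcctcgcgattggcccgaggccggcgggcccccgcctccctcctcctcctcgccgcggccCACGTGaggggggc
CREB3L2, upstream of the start: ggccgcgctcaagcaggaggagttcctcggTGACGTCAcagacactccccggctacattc

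CREM is known for starts inside the gene that make short repressor forms, named ICER. The full CRE of CREM lay near such an inner start. Inner starts also held TGATGTCA, which differs from it by a base and stood in 2.61% of all windows. Of the 9 genes only CREM had this motif, in 4 of the 21 windows, some of which overlap and share an element. By gene, 3.18% of all genes with a window had it. A further match to TGATGTCA lay at another inner start of CREM and matches to TGACG alone at a start near the 5′ end of the gene, and these are not printed. The capitals mark both kinds of element at chr10:35195050-35195109, chr10:35195761-35195790 and chr10:35195841-35195870, all on the plus strand. The last of these stretches overlaps an annotated exon of CREM, and its full CRE also lies just after another annotated inner start.
CREM, inner start A: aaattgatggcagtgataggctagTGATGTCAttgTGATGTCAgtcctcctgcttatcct
CREM, inner start B, farther element: ttgagttcaaaaggcTGATGTCAttacatt
CREM, inner start B, nearer element: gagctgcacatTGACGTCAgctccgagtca

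The libraries held between 14288165 and 16510186 estimated counts, and levels are given as counts scaled to the library total (CPM) on the TMM scale of edgeR. PLK2 RNA was at 23740 ± 2380 CPM in PLK2, 12360 ± 1650 CPM in PLK2(D223N) and 3.42 ± 0.64 CPM in Vector libraries (SD, n = 3 each). The constructs thus differed in RNA level, and the form of the kinase and its dose cannot be told apart in any comparison of PLK2 with PLK2(D223N). The Vector libraries stood apart from each other along the GC content of transcripts. The Spearman correlation, across genes, of a library's log2 deviation from the mean of all libraries with GC content was 0.660 in Vector replicate 1 and -0.406 in Vector replicate 2, against -0.424 to -0.211 in PLK2 and -0.0485 to 0.0212 in PLK2(D223N) libraries. All 6 epithelial and HEK293T markers were tested. On the scale of CPM without TMM, used for these marker sums alone, they came to 571 to 608 CPM in PLK2, 588 to 598 CPM in PLK2(D223N) and 581 to 665 CPM in Vector libraries. VIM led them in every library, while EPCAM and CDH1 stayed between 1.36 and 4.05 CPM on that scale. Markers of microglia and macrophages, fibroblasts and endothelial cells summed to at most 3.54, 13.3 and 0.992 CPM in any library, on the same scale. These sums cover 5 of 8, 4 of 5 and 5 of 5 listed markers. PTPRC, AIF1 and TREM2 of the first list and DCN of the fibroblast list were not in the deposited table.

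CREBRF (NCBI gene 153222, chr5:173056352-173139284, plus strand, GENCODE release 29 on GRCh38) was highest in all PLK2 libraries. It had 52.1, 55.7 and 48.6 CPM in PLK2 libraries, 35.2, 33.4 and 33.0 CPM in PLK2(D223N) libraries and 25.9, 33.4 and 29.2 CPM in Vector libraries. The PLK2 libraries lay above all other libraries with a wide gap, while PLK2(D223N) and Vector libraries overlapped at the level of Vector replicate 2. The means were 52.1 ± 3.6, 33.9 ± 1.1 and 29.5 ± 3.7 CPM in PLK2, PLK2(D223N) and Vector (SD, n = 3 each), on 2467, 1644 and 1392 counts in all. CREBRF was 1.77 times as high in PLK2 as in Vector (log2 fold change 0.83, SE 0.08) and 1.54 times as high in PLK2 as in PLK2(D223N) (0.62, SE 0.08). Between PLK2(D223N) and Vector the log2 fold change was 0.20 (SE 0.085). In bulk RNA, more cells with CREBRF RNA and more of it per cell cannot be told apart.

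CREB5 (NCBI gene 9586, chr7:28299321-28825894, plus strand) followed another pattern, with both constructs at about the same level. It had 47.6, 48.3 and 51.3 CPM in PLK2 libraries, 47.0, 51.1 and 46.1 CPM in PLK2(D223N) libraries and 32.6, 40.0 and 37.7 CPM in Vector libraries. Every library with a construct lay above every Vector library, and the constructs overlapped each other. The log2 fold change was 0.42 (SE 0.075) for PLK2 against Vector and 0.39 (SE 0.075) for PLK2(D223N) against Vector, comparisons that share the Vector libraries. Between PLK2 and PLK2(D223N) it was 0.03 (SE 0.07).

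**Figure D1:**
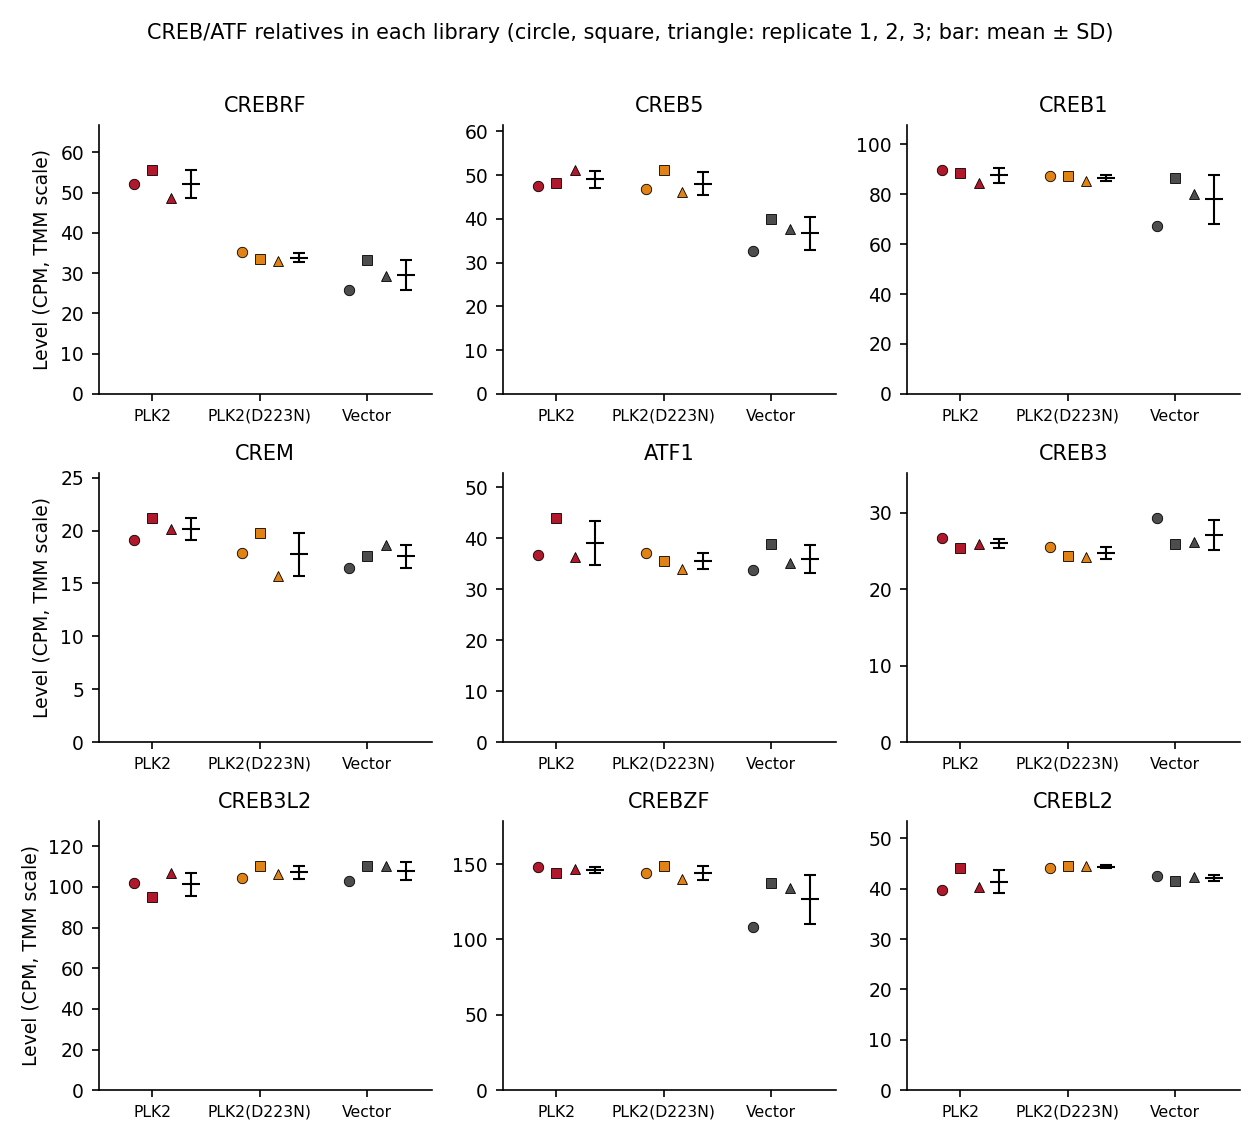
Level of each of the 9 genes in CPM on the TMM scale (y axis, from 0) in PLK2, PLK2(D223N) and Vector libraries (x axis), with a symbol for each library and the mean ± SD of 3 libraries beside it. CREBRF lies between 48.6 and 55.7 CPM in PLK2 libraries and at or below 35.2 CPM in all others, CREB5 is lowest in the 3 Vector libraries, and Vector replicate 1 is the lowest library for CREB1 and CREBZF.

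The core CREB group moved less than CREBRF. CREB1 (chr2:207529737-207603431, plus strand) had 89.8, 88.3 and 84.3 CPM in PLK2, 87.1, 87.3 and 85.2 CPM in PLK2(D223N) and 67.2, 86.3 and 80.2 CPM in Vector libraries. Vector replicate 1 was far below the other libraries, and Vector replicate 2 lay within the range of the constructs. The log2 fold change was 0.17 (SE 0.07) for PLK2 against Vector, 0.15 (SE 0.07) for PLK2(D223N) against Vector and 0.02 (SE 0.07) between the constructs. CREB1 is the only one of the 9 genes whose estimated counts were not whole numbers in most libraries, so reads shared with other genes were divided there and its level is uncertain.

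CREM, which encodes activators and, from its inner starts, the ICER repressors, had 19.1, 21.2 and 20.1 CPM in PLK2 libraries, 17.9, 19.8 and 15.7 CPM in PLK2(D223N) libraries and 16.5, 17.6 and 18.6 CPM in Vector libraries. In CPM the PLK2 libraries lay above the Vector libraries by a narrow gap and overlapped those of PLK2(D223N). The log2 fold change was 0.20 (SE 0.09) against Vector and 0.18 (SE 0.09) against PLK2(D223N). The table gives a single value per gene, so activator and ICER transcripts are not separated. ATF1, which pairs with CREB1, had 36.8, 44.0 and 36.4 CPM in PLK2, 37.2, 35.6 and 34.1 CPM in PLK2(D223N) and 33.7, 38.9 and 35.2 CPM in Vector libraries. All groups overlapped for ATF1, and PLK2 replicate 2 was the highest library.

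CREB3, the factor that CREBRF binds, did not mirror CREBRF. It had 26.7, 25.5 and 25.9 CPM in PLK2 libraries, 25.6, 24.3 and 24.2 CPM in PLK2(D223N) libraries and 29.4, 25.9 and 26.1 CPM in Vector libraries. In CPM the PLK2(D223N) libraries lay just below all Vector libraries (log2 fold change -0.14, SE 0.07), and PLK2 libraries overlapped Vector libraries (-0.06, SE 0.07). CREB3 (chr9:35732335-35737004, plus strand) shares 139 exonic bases with GBA2 and 61 with TLN1, both on the minus strand, and without a stated strand setting such reads cannot be assigned with certainty. CREB3L2, its relative with a role in the secretory pathway of mouse cartilage cells, had 101.8, 95.0 and 106.7 CPM in PLK2, 104.2, 110.4 and 106.6 CPM in PLK2(D223N) and 102.8, 110.4 and 110.3 CPM in Vector libraries. Its groups overlapped in every comparison, with log2 fold changes of -0.09, -0.01 and -0.08 (SE 0.06 each) for PLK2 against Vector, PLK2(D223N) against Vector and PLK2 against PLK2(D223N).

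CREBZF, an atypical bZIP protein that binds the cofactor HCFC1, resembled CREB1. It had 147.9, 144.2 and 146.5 CPM in PLK2 libraries, 144.1, 148.9 and 139.9 CPM in PLK2(D223N) libraries and 108.0, 137.8 and 134.0 CPM in Vector libraries. In CPM every library with a construct lay above the Vector libraries, though by little above Vector replicate 2. The log2 fold changes were 0.21 (SE 0.07) for PLK2 and 0.19 (SE 0.07) for PLK2(D223N). CREBL2, a small relative that binds CREB1, had 39.8, 44.1 and 40.4 CPM in PLK2, 44.0, 44.5 and 44.6 CPM in PLK2(D223N) and 42.5, 41.5 and 42.4 CPM in Vector libraries. The PLK2 libraries spread across those of Vector, and the PLK2(D223N) libraries lay above them by 0.07 on the log2 scale (SE 0.06).

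**Figure D2:**
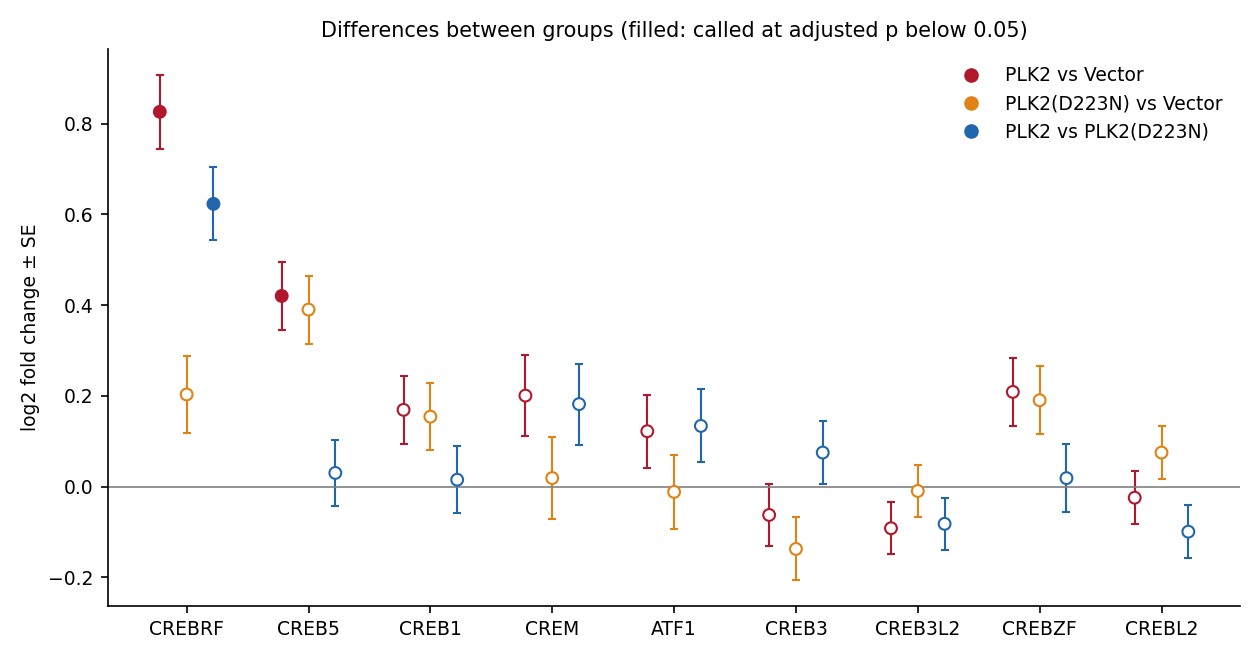
The log2 fold change of each of the 9 genes (y axis, with its SE as the bar) in PLK2 vs Vector, PLK2(D223N) vs Vector and PLK2 vs PLK2(D223N), with filled points where the fit over all tested genes called the gene. CREBRF stands at 0.83 and 0.62 in the comparisons that involve PLK2 and at 0.20 in PLK2(D223N) vs Vector, while CREB5 stands at 0.42, 0.39 and 0.03.

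At an adjusted p below 0.05 over all 12924 tested genes (edgeR quasi-likelihood test, Benjamini-Hochberg), CREBRF and CREB5 were called higher in PLK2 than in Vector, 2 of the 9 genes where 0.511% of all tested genes were called. In PLK2 against PLK2(D223N) only CREBRF was called, where 0.162% of tested genes were. In PLK2(D223N) against Vector edgeR called 0 of the 9, where 0.0232% of tested genes were called. There 3 of the 9 had an unadjusted p below 0.05, as did 8.53% of all tested genes, and the DESeq2 Wald test called 1, CREB5. Nothing is read from these shares, since the genes were picked with these comparisons known. In CPM the groups did not overlap for 4 of the 9 genes in PLK2 against Vector (20.1% of tested genes), for 4 in PLK2(D223N) against Vector (13.9%) and for 1 in PLK2 against PLK2(D223N) (20.5%). The median log2 fold change of the 9 was 0.17, 0.07 and 0.03 in these comparisons, against -0.0044, 0.0079 and -0.0049 over all tested genes.

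Per transcript length, in the authors' TPM values, which set counts against transcript length and the library total, CREBRF and CREB5 were the lowest of the 9 genes in every group. In PLK2 libraries CREBZF led at 39.3 TPM, followed by CREB3 (38.9), CREB1 (32.6), ATF1 (32.5), CREB3L2 (26.2), CREM (24.7), CREBL2 (21.1), CREBRF (12.6) and CREB5 (11.6). Neighbours in this order whose libraries overlapped were CREBZF and CREB3, CREB1 and ATF1, CREB3L2 and CREM, and CREBRF and CREB5. In PLK2(D223N) libraries the order held save that CREBL2 (23.5 TPM) stood above CREM (22.4 TPM), with overlap, and CREB5 (11.7 TPM) above CREBRF (8.45 TPM), without overlap. CREBZF overlapped CREB3 there too, and ATF1 overlapped CREB3L2. In Vector libraries CREB3 led at 40.6 TPM and did not overlap CREBZF at 33.9 TPM. CREB5 (8.53 TPM) and CREBRF (7.00 TPM) came last there and overlapped each other, as did CREBZF and ATF1, ATF1 and CREB1, CREB1 and CREB3L2, and CREM and CREBL2. CREBRF and CREB5 thus changed places with PLK2, but in PLK2 replicate 3 CREB5 was the higher. Some separations of groups seen in CPM were lost in TPM. For CREBZF, PLK2 replicate 2 (37.8 TPM) lay below Vector replicate 2 (37.94 TPM). For CREM, Vector replicate 3 (25.14 TPM) lay above PLK2 replicates 1 and 3 (24.22 and 24.08 TPM). For CREB3, PLK2(D223N) replicate 1 (39.75 TPM) lay above Vector replicate 3 (39.47 TPM). The remaining separations were kept.

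**Figure D3:**
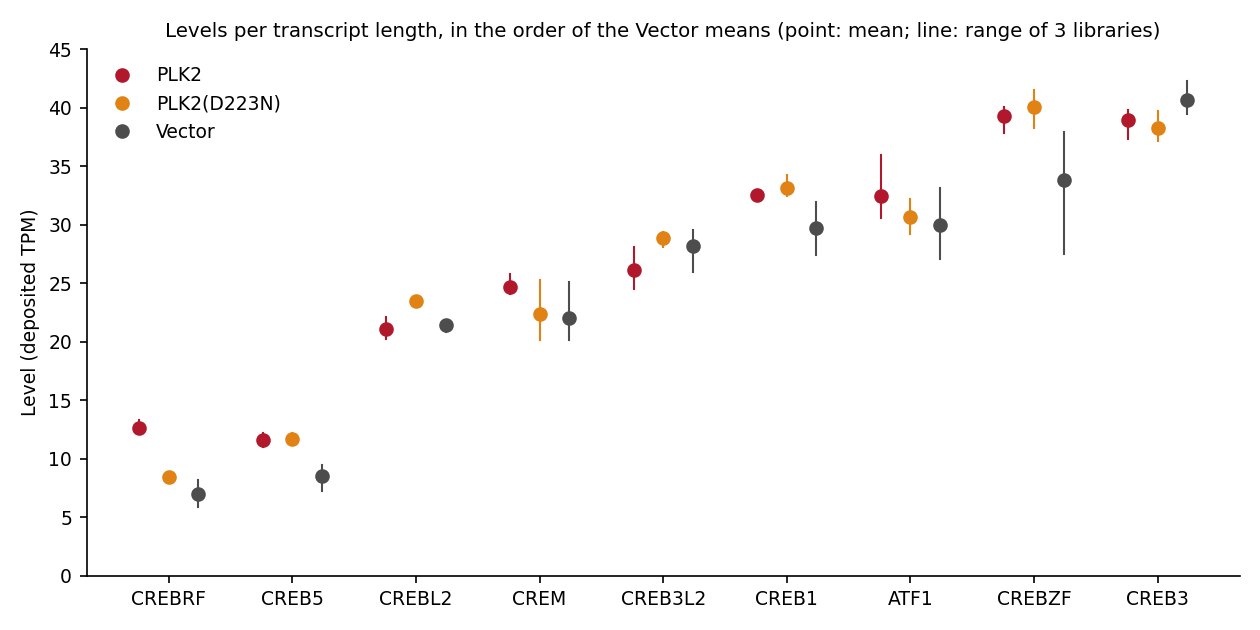
Deposited TPM (y axis, from 0) of the 9 genes in the order of their Vector means (x axis), with the mean as the point and the range of 3 libraries as the line for PLK2, PLK2(D223N) and Vector. CREBRF lies lowest in PLK2(D223N) and Vector libraries, at 8.45 and 7.00 TPM, and above CREB5 in PLK2 libraries, at 12.6 against 11.6 TPM.

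The ratio of CREBRF to CREB5 within a library needs no scaling between libraries. In TPM it was 1.14, 1.15 and 0.989 in PLK2 libraries, 0.763, 0.706 and 0.704 in PLK2(D223N) libraries and 0.804, 0.863 and 0.790 in Vector libraries. The PLK2 ratios lay above all others, and the PLK2(D223N) ratios lay below those of Vector. By the longest annotated transcript, CREB1 has a GC content (36.0%) and a length (7650 bases) close to those of CREBRF (35.8%, 7778 bases). It was chosen as a yardstick after the values were seen. The CREBRF to CREB1 ratio of counts was 0.580, 0.631 and 0.577 in PLK2 libraries, 0.404, 0.383 and 0.387 in PLK2(D223N) libraries and 0.386, 0.387 and 0.364 in Vector libraries. In counts PLK2(D223N) overlapped Vector, and PLK2 stayed clear of both. In TPM the ratio was 0.380, 0.407 and 0.375 in PLK2, 0.256, 0.263 and 0.246 in PLK2(D223N) and 0.213, 0.255 and 0.237 in Vector libraries. The Vector libraries lay farther apart in TPM than in counts, with Vector replicate 1 lowest, and the overlaps were the same. In every library this ratio was lower in TPM than in counts. The lengths behind the TPM values thus differed more than those of the longest transcripts. CREB1 counts were also not whole in most libraries, so CREB1 is not a matched control. The CREB5 to CREB1 ratio of counts was 0.530, 0.547 and 0.609 in PLK2, 0.539, 0.586 and 0.541 in PLK2(D223N) and 0.485, 0.463 and 0.470 in Vector libraries, so that both constructs stayed above Vector. In TPM it was 0.334 to 0.379 in PLK2, 0.335 to 0.372 in PLK2(D223N) and 0.265 to 0.30 in Vector libraries, again without overlap with Vector.

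For most of the 9 genes the direction of the spread of the Vector libraries went with GC content, but its size did not. Vector replicate 1 lay below the Vector mean by 0.18 for CREBRF, 0.17 for CREB5, 0.21 for CREB1 and 0.22 for CREBZF on the log2 scale, genes with a GC content between 35.8% and 42.5%. For CREB3, at 56.6% the richest in GC, Vector replicate 1 lay above the mean by 0.12. ATF1, with the lowest GC content at 34.2%, stood at only -0.09 in Vector replicate 1, CREM at 40.4% also at -0.09 and CREB3L2 at 48.1% at -0.07. CREBL2, at 40.1%, showed almost no spread. With the trends of each library with GC content and length removed, an alternative added after seeing the data, the log2 fold change of CREBRF was 0.67 for PLK2 against Vector, 0.07 for PLK2(D223N) against Vector and 0.60 between the constructs. That of CREB5 was 0.31, 0.29 and 0.02, and that of CREB1 0.02, 0.03 and -0.01. The difference of CREB1 from Vector was thus nearly gone in that fit, while CREBRF in PLK2 and CREB5 with either construct kept most of theirs.

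**Figure D4:**
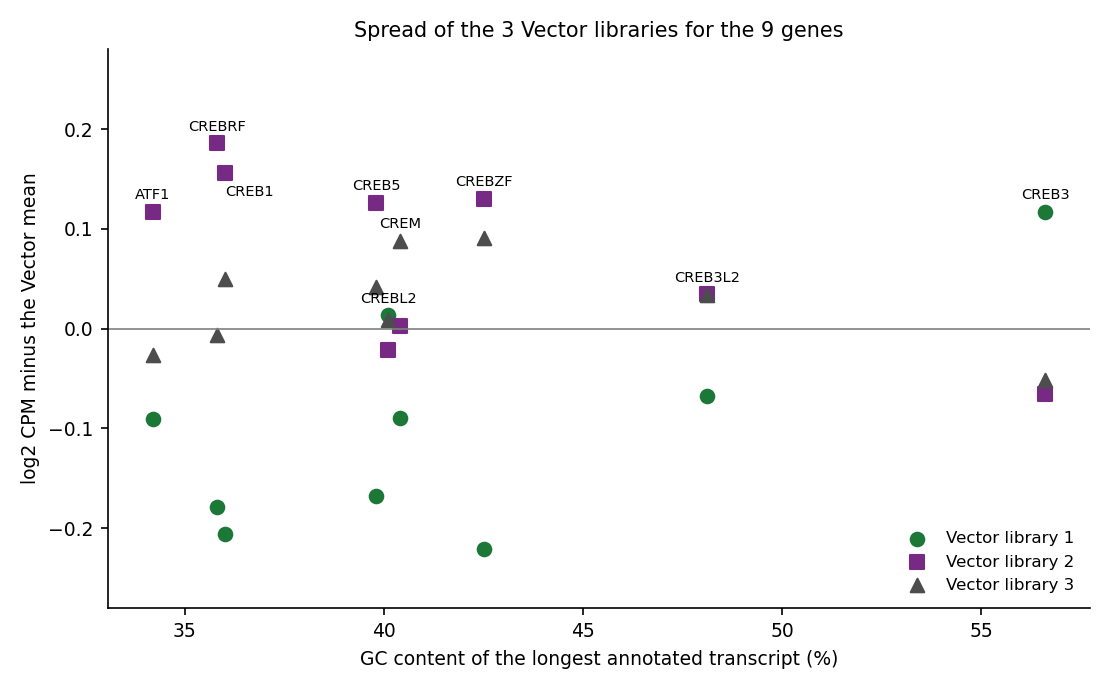
Log2 CPM of each Vector library minus the mean of the 3 Vector libraries (y axis) against the GC content in percent of the longest annotated transcript (x axis), for the 9 genes. Vector replicate 1 is lowest for 7 of the 9 genes, all with a GC content of 48.1% or less. It is highest for CREB3 at 56.6% and, with almost no spread, for CREBL2 at 40.1%.

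The calls below show how each result depends on the processing. They add no support to it, since the genes were picked with these comparisons known and every fit draws on the same 9 libraries. Of 19 alternative processings, CREBRF was called in PLK2 against Vector in all 19, with log2 fold changes from 0.67 to 0.92, and in PLK2 against PLK2(D223N) in 18. The exception was limma on log2(TPM + 1), at 0.53. CREB5 in PLK2 against Vector was called in 13 of the 19, with values from 0.31 to 0.48. It was lost with limma, with the 6 compared libraries alone (0.42), and without PLK2 replicate 1, 2 or 3 (0.44, 0.43 and 0.38) or Vector replicate 3 (0.44). In PLK2(D223N) against Vector CREB5 was called in 5 of the 19, among them without Vector replicate 1 (0.31) and without Vector replicate 2 (0.45). CREBRF in that comparison was called only without Vector replicate 2 (0.30), and stood at 0.12 without Vector replicate 1. CREB1 and CREBZF were called in PLK2 against Vector only without Vector replicate 2, at 0.25 and 0.27. Their lowest values in that comparison over the 19 were 0.018 and 0.106. CREBZF thus fell less far than CREB1.

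**Figure D5:**
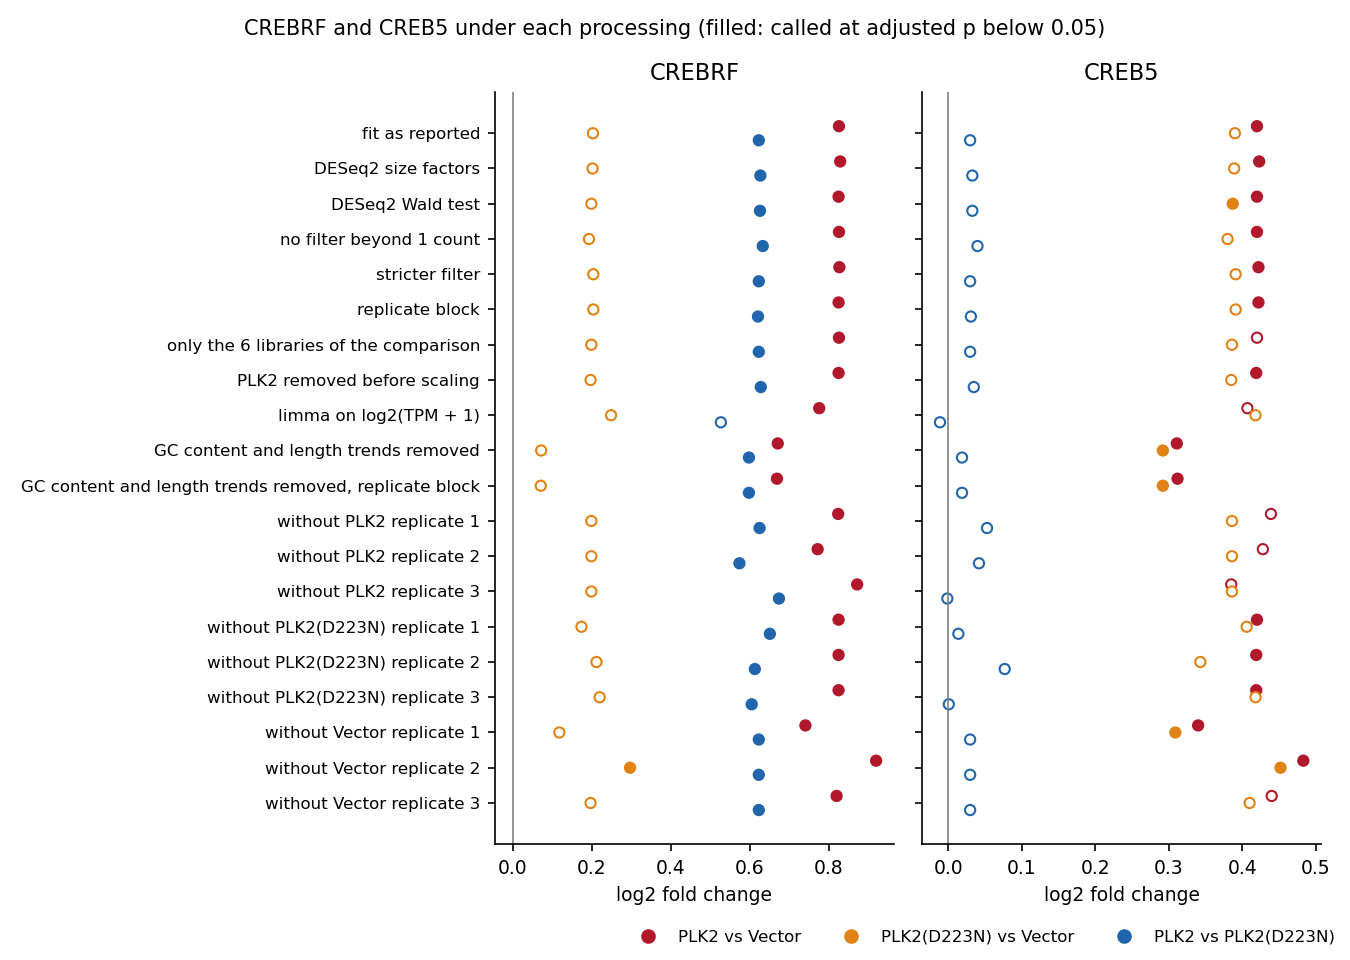
Log2 fold changes of CREBRF and CREB5 (x axis) in the 3 comparisons under the reported fit and each alternative (y axis), with filled points for calls (adjusted p below 0.05). CREBRF in PLK2 vs Vector is filled throughout, from 0.67 to 0.92, while CREB5 keeps a value of 0.31 to 0.48 with calls in 13 of 19 alternatives.

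The correlations across the 9 libraries are a description. The points share the groups, and the part of the libraries' GC trends in them was not tested. CREB1 and CREBZF ran together most closely (Pearson r = 0.965 on log2 CPM), and CREB5 ran with CREBZF (0.911) and CREB1 (0.833). CREB3 ran against all 3, at -0.737 to -0.797. CREBRF ran most with CREM (0.715) and CREB5 (0.711). Over 12295 genes whose mean reached 1 CPM, those most like CREBRF were NET1, a guanine nucleotide exchange factor for RhoA (r = 0.990), RGS17, a regulator of G-protein signalling (0.976), ZBTB21 (0.975), the hyaluronan receptor HMMR (0.974) and CYLD, a deubiquitinase of the NF-kB pathway (0.972). RGS17 averaged 20.5, 15.4 and 13.2 CPM and NET1 145, 132 and 130 CPM in PLK2, PLK2(D223N) and Vector, so likeness in order goes with differences of unequal size. Those most like CREB5 were CACNB4, a calcium channel subunit (0.957), ZBTB10 (0.954), FNDC3B (0.953), RTKN2 (0.952) and DSE (0.948). Their GC content lay between 35.5% and 42.4%, and that of the genes named as most like CREBRF between 32.3% and 43.5%.

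The remaining CREB/ATF and related bZIP factors, 21 of 24 listed, went through the same fit (edgeR quasi-likelihood, Benjamini-Hochberg). This list and those below were drawn up with earlier results of these data known. Their p-values are therefore a description as well. In PLK2 against Vector 0 of the 21 passed. There 3 were higher and 2 lower at an unadjusted p below 0.05, where 9.56% of all tested genes were higher and 6.81% lower at that level, and the DESeq2 Wald test called 2 higher. The smallest p belonged to DDIT3, the stress factor CHOP, with 20.0, 23.9 and 18.6 CPM in PLK2 libraries, 17.1, 16.2 and 17.02 CPM in PLK2(D223N) libraries and 16.2, 13.5 and 15.8 CPM in Vector libraries. Its log2 fold change of 0.45 (SE 0.10, edgeR adjusted p = 0.0538) for PLK2 against Vector did not pass. ATF2, the close relative of CREB5, stood at 0.34 (SE 0.08, edgeR adjusted p = 0.0793), and Vector replicate 1 was its lowest library at 67.8 CPM, against 83.8 to 109.1 CPM in all others. TEF, next by p, went the other way at -0.45 (SE 0.12, edgeR adjusted p = 0.113). The median of the 21 was 0.0054, and 11 lay above 0, where 48.9% of all tested genes did.

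ATF3, an early stress-response factor that represses or activates with its partner, rose in PLK2(D223N) libraries. It had 91.0, 80.9 and 86.8 CPM in PLK2(D223N) libraries and 69.1, 57.3 and 58.9 CPM in Vector libraries, without overlap, a log2 fold change of 0.48 (SE 0.07, edgeR adjusted p = 0.0261). With PLK2 it had 73.8, 74.8 and 71.3 CPM, between the other groups, and PLK2 against PLK2(D223N) gave -0.23 (SE 0.07, edgeR adjusted p = 0.446). ATF3 was called in 10 of 19 alternatives, with values from 0.43 to 0.57. It was lost with limma, in the 6 compared libraries alone, and when any PLK2 or PLK2(D223N) library or Vector replicate 3 was left out. In PLK2 against PLK2(D223N), 0 of the 21 passed edgeR or DESeq2, with 3 higher and 1 lower at an unadjusted p below 0.05 (2.98% and 3.06% of all tested genes).

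Among 29 listed CREB target genes, 16 could be tested, and EGR1, an immediate-early zinc finger factor whose promoter also answers to serum response factor, was the only one to pass. It had 5.64, 5.19 and 5.89 CPM in PLK2 libraries, 6.64, 5.31 and 6.33 CPM in PLK2(D223N) libraries and 2.67, 2.71 and 2.71 CPM in Vector libraries. Both constructs lay far above Vector. The log2 fold change was 1.05 for PLK2 (SE 0.14, edgeR adjusted p = 0.00237) and 1.18 for PLK2(D223N) (SE 0.14, edgeR adjusted p = 0.00228), and it was called in all 19 alternatives of either comparison. FOS, the best known immediate-early target, had 2.41, 1.92 and 2.13 CPM in PLK2, 3.54, 2.53 and 2.83 CPM in PLK2(D223N) and 3.15, 2.29 and 2.83 CPM in Vector libraries, and did not pass in any comparison. NR4A1, an orphan nuclear receptor, averaged 6.85, 7.49 and 6.86 CPM in PLK2, PLK2(D223N) and Vector and did not pass either. In PLK2 against PLK2(D223N) 0 of the 16 passed edgeR or DESeq2, and 3 were lower at an unadjusted p below 0.05, as were 3.06% of all tested genes.

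The steps that act on CREB proteins gave no call in any of the 3 comparisons in the reported edgeR fit or by the DESeq2 Wald test. The other settings were followed only for the gene with the smallest p of each list in each comparison. Calls of the remaining list members under them are not given here. Some of the followed genes were called in other edgeR settings. EP300 was called in PLK2 against Vector in both fits with GC and length trends removed (0.17), and in PLK2 against PLK2(D223N) with the 6 compared libraries alone, without Vector replicate 1 (0.11 in both) and with trends removed (0.16). ADCY9 was called in PLK2 against PLK2(D223N) with the 6 compared libraries alone (-0.15) and in PLK2 against Vector without Vector replicate 2 (-0.22), and RPS6KA1 in PLK2 against Vector without Vector replicate 2 (-0.23). Of 10 coactivators and their kinases, EP300, a histone acetyltransferase, had the smallest p in PLK2 against Vector (0.14, SE 0.05, edgeR adjusted p = 0.213), with 217.2, 212.3 and 221.9 CPM in PLK2 and 194.0, 204.8 and 194.5 CPM in Vector libraries. It alone of the 10 had an unadjusted p below 0.05 there. Of 23 genes of cyclic AMP and PKA signalling, 5 were lower and 0 higher at an unadjusted p below 0.05 in PLK2 against Vector, where 6.81% of all tested genes were lower and 9.56% higher, led by the adenylyl cyclase ADCY9 (-0.19, edgeR adjusted p = 0.138). Of 12 other CREB kinases 2 were lower at that level, led by RPS6KA1, which encodes RSK1 (-0.21, edgeR adjusted p = 0.175). Of 16 genes for the proteolysis, partners and secretory targets of CREB3 and its relatives, 1 was lower, the KDEL receptor KDELR3 (-0.19, edgeR adjusted p = 0.208). In PLK2(D223N) against Vector the unadjusted counts in these lists were 2 lower in cyclic AMP and PKA signalling and 0 in the remaining lists, where 3.30% of all tested genes were lower and 5.22% higher. In PLK2 against PLK2(D223N) they were 1 higher and 1 lower among coactivators, 2 lower in cyclic AMP and PKA signalling and 0 in the remaining lists, beside 2.98% higher and 3.06% lower over all tested genes.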

How the data were processed

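RNA-seq of 9 HEK293T libraries was used, 3 each of PLK2, PLK2(D223N) and Vector, grouped by the labels. Per the labels' protocols, polyadenylated RNA was captured with oligo(dT) beads. The submitters' processing notes name Bowtie2, RSEM 1.3.1, DESeq2 1.4.5 and GRCh38.p13. What each tool did, the annotation and whether strand was used in counting is not given in the sources used here. In the table, the authors deposited estimated counts, which need not be whole, and, per the file headers, TPM. A further 18 per-library columns were not used. The title of Vector replicate 1 has transposed letters, and its column was matched by number.

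Estimated counts were rounded, genes were kept by filterByExpr, libraries were scaled by TMM, and the 9 libraries entered 1 quasi-likelihood model (glmQLFit, glmQLFTest, robust) in edgeR 4.0.16 with the group as the only term. P-values are two-sided, adjusted by the Benjamini-Hochberg method over all 12924 tested genes and called below 0.05. R 4.3.3, limma 3.58.1 and DESeq2 1.42.0 were used. The procedure was tested on simulated counts. Totals of 14288165 to 16510186 counts set the precision, and SD and SE cover the spread between cultures and counting error together. Likeness is Pearson's r of log2(CPM + 0.5). GC content and length are those of the longest GENCODE release 29 transcript, and promoter sequences are RefSeq's. All 9 genes matched by symbol. A count is called whole within 0.005.

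The genes, the lists of related genes and the tests were chosen with earlier results of these data known. Besides the 9 genes and PLK2, the rule names from each list the called genes or else the one with the smallest p, and the 5 genes most like CREBRF and CREB5. ATF2, TEF, FOS and NR4A1 were named after their values were seen. Of the CREB targets listed, 24 were in the table and the others were not analysed here. Alternatives were size factors of DESeq2, its Wald test, a filter of 1 count only, a filter of 10 counts throughout a group with a mean of 1 CPM, a replicate block, the 6 compared libraries alone, PLK2 removed before scaling, limma on log2(TPM + 1) where the mean TPM reached 1, and each library left out. The removal of GC and length trends (loess, span 0.3), with and without the block, was added after seeing the data.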

Additional observations from a re-analysis of the deposited data

How the results depend on the processing

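The number of genes called moved more than the 9 genes did, and the cause was not tested. In PLK2 vs Vector, 66 genes were called in the reported fit. The count was 116 by the DESeq2 Wald test, 136 with no filter beyond 1 count, 23 in the 6 compared libraries alone, 25 by limma on log2(TPM + 1), 376 with GC and length trends removed and 342 with the replicate block added to that. Leaving out a library gave 13 to 1656, with 363 without Vector replicate 1, 1656 without Vector replicate 2, and 22, 13 and 20 without PLK2 replicate 1, 2 and 3. In PLK2(D223N) vs Vector, 3 genes were called, against 7 by DESeq2, 5 with no filter, 8 with trends removed, 14 with trends removed and the block, and 2 to 347 with a library left out (21 without Vector replicate 1, 347 without Vector replicate 2). In PLK2 vs PLK2(D223N), 21 genes were called, against 35 with no filter, 502 in the 6 libraries, 8 by limma, 96 with trends removed, 93 with trends removed and the block, and 9 to 317 with a library left out (317 without Vector replicate 1, 54 without Vector replicate 2).

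Of the 9 genes, 2 were called in PLK2 vs Vector, 1 in the 6 libraries alone, 1 by limma and 1 to 4 with a library left out. In PLK2(D223N) vs Vector 0 were called, against 1 by DESeq2, 1 with trends removed, 1 with trends removed and the block, and 0 to 2 with a library left out. In PLK2 vs PLK2(D223N) 1 was called, against 0 by limma and 1 to 1 with a library left out. No called value of the 9 genes changed sign under any alternative run. Of the called genes outside the 9, EGR1 was called in all 19 alternatives and ATF3 in 10. DDIT3 in PLK2 vs Vector was called in 6, without Vector replicate 1 or 2, without a filter, by DESeq2 and in both fits with trends removed.

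Replicate numbers were not used as pairs in the reported fit. Deviations of same-numbered libraries from their group means correlated at -0.127 to 0.126 across genes. Differently numbered libraries were not set beside them, so these values do not settle whether the libraries were paired. The replicate block alone gave 76, 4 and 20 called genes in PLK2 vs Vector, PLK2(D223N) vs Vector and PLK2 vs PLK2(D223N), and changed no call among the 9 genes. Where a library is left out, the 2 that remain share the spread of all groups.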
